A study of Mus musculus with 2 samples.

Results

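The 10 genes described here encode the main chaperones of the endoplasmic reticulum (ER) and the genes that the stress sensors IRE1 and ATF6 are known to switch on: Hspa5, Hsp90b1, Calr, Pdia4, Sdf2l1, Dnajb9, Herpud1, Edem1, Xbp1 and Ern1. They were taken by name, not by a measured value, from 20655 genes named on the array, and every probe matched to one of them by its RefSeq accession was used, 11 probes in all. All 10 genes carried the scanner software's flag for a signal well above background on each array, so none was lost to a filter on dim probes, and they are set against the 16168 genes that met the same condition. RNA of mouse retina at postnatal day 14 was hybridised to 1-colour Agilent arrays, 1 array labelled Mef2d KO and 1 array of wild-type (WT) retina, and their comparison addresses what the retina expresses without the transcription factor gene Mef2d. The labels used here give neither the allele and the cells in which Mef2d was deleted nor the number and sex of the animals behind each array.

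Each group is a single array, so no value has replicates and no test was made. Differences are log2 values, array labelled Mef2d KO minus WT, after each array's signal was divided by its 75th percentile, and ± is the error that the scanner software assigns to a pair of spots, which leaves out variation between animals. The Mef2d probes themselves had signals of 1083 and 295 on the array labelled Mef2d KO, against 758 and 252 on the WT array, so the targeted gene was not lower, and the sources used here do not say where the probes lie relative to the deleted part. The arrays also differed in Xist, the RNA of the inactive X chromosome, with signals of 817 and 418 on the array labelled Mef2d KO, against 3.03 and 3.54 (not well above background) on the WT array, so that genotype and the sex of the animals cannot be told apart. None of the 10 genes lies on X or Y. The tissue label was checked on 9 rod genes, all well above background on both arrays, among them Rom1, a structural protein of rod discs, with a signal of 280260 on the array labelled Mef2d KO, against 275109 on the WT array.

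The ER folds secreted and membrane proteins, and its load is heavy in photoreceptors, which renew their membrane discs throughout life. When unfolded proteins build up, the chaperone BiP leaves the sensors in the ER membrane, IRE1 removes a short intron from Xbp1 mRNA so that an active transcription factor is made, and ATF6 is cut in the Golgi to release another. Both factors bind short promoter elements and raise genes for chaperones and for the removal of misfolded proteins, while the third sensor, PERK, acts through the factor ATF4.

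The 10 genes stood at nearly the same level on both arrays. None was 2-fold apart in either direction, a limit that 1.73% of all genes passed downward and 0.619% upward. None passed even a limit of 0.32 on the log2 scale, which 12.5% of all genes passed downward and 6.59% upward. Within that narrow range 9 of the 10 had a positive difference, against 48.8% of all genes. Among genes with a mean level above -3, where all 10 lie, the share was 53.8%. The median of the 10 was 0.12, against -0.0060 over all genes. The highest were Pdia4, Hspa5 and Xbp1, and the single negative one was Edem1, which turned to 0.11 with scaling to the array median, a scaling that moves the median of all genes to 0.17. Under that scaling all 10 were positive, against 77.5% of all genes, and 4 passed the limit of 0.32 upward, against 20.3% of all genes. With normexp background correction 8 of the 10 were positive, and likewise 8 with the probes of each gene averaged.

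The promoters of several of these genes hold a known type of element. The genes were listed as known targets of IRE1 and ATF6, so its presence describes them and is not an independent result. The ER stress response element (ERSE) is CCAAT and CCACG with 9 bases between them, the site through which ATF6 and XBP1 act, together with the factor NF-Y on its CCAAT side, and its shorter form ERSE-II is ATTGG and CCACG with 1 base between them. The stretches shown here hold an exact ERSE (Hspa5, Hsp90b1 and Calr), an ERSE with 1 mismatch (Pdia4) or an exact ERSE-II (Herpud1) in the window from 250 bases before to 50 bases after the RefSeq start of each gene (GRCm38.p6). Capitals mark these elements. Those that end in ATTGG lie on the opposite strand, and the middle of the 3 in Hsp90b1 has 1 mismatch.
Hspa5, chr2:34771970-34772089, plus strand: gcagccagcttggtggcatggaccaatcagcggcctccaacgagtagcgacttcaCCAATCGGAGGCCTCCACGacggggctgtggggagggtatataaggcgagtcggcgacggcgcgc
Hsp90b1, chr10:86705523-86705666, minus strand: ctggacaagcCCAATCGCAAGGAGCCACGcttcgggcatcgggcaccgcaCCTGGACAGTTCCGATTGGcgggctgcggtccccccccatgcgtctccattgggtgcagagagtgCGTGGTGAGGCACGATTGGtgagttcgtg
Calr, chr8:84847064-84847103, minus strand: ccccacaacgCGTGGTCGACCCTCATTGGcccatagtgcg
Pdia4, chr6:47813591-47813630, minus strand: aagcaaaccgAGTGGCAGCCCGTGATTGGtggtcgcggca
Herpud1, chr8:94386367-94386397, plus strand: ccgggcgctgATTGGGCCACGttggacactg

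An exact ERSE was found in the windows of 3 of the 10 genes, Hspa5, Hsp90b1 and Calr, and in 39 of all 32851 windows (0.119%), both strands searched. Hsp90b1 held 2 exact elements, beginning 212 and 107 bases before the start, Hspa5 held 1 at 65 bases and Calr 1 at 162 bases. The ERSE-II of Herpud1 lies 52 bases before the start, and 12 of all windows (0.0365%) held one. With 1 mismatch allowed in the fixed letters the ERSE was found in 5 of the 10 genes and in 1.5% of all windows. That added Pdia4 (G19T, counted from 1 at the first C of CCAAT) and Herpud1 (G19A), and a further element of Hsp90b1 (C18G). No window of the 10 genes held the XBP1 core TGACGTGG (0.676% of all windows), the cyclic AMP element TGACGTCA, which shares its first 6 letters with that core (1.79%), or the MEF2 site (3.19%). The Edem1 window of RefSeq lies around a start 4596 bases inside the annotated gene, so a promoter at the gene's first base was not searched.

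**Figure D1:**
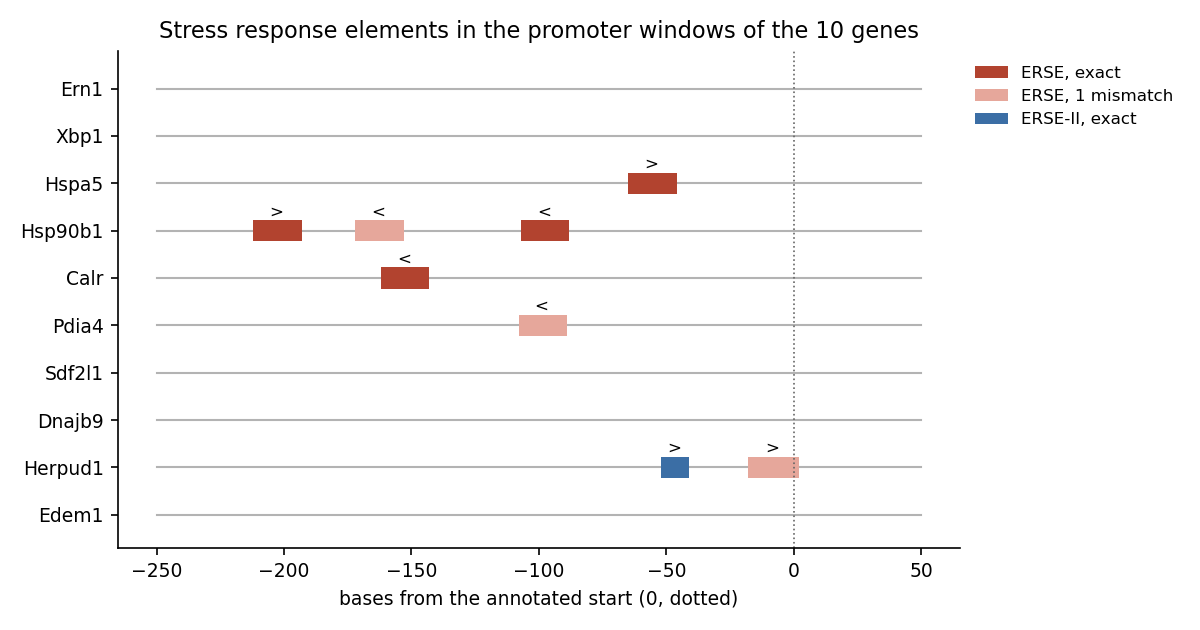
Position of stress response elements in the promoter windows of the 10 genes, in bases from the annotated start (0), with bars for an exact ERSE, an ERSE with 1 mismatch and an exact ERSE-II, and arrowheads for the strand relative to the gene. Exact ERSEs lie in Hspa5, Hsp90b1 (2 of them) and Calr, and the ERSE-II in Herpud1.

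The sensor Ern1 and its substrate Xbp1 were read by 1 probe each. Ern1 (chromosome 11), which encodes IRE1, the kinase and RNase that splices Xbp1, had a signal of 272 on the array labelled Mef2d KO, against 245 on the WT array, a difference of 0.067 ± 0.21. Xbp1 (chromosome 11), the transcription factor made active by that splicing, had a signal of 22304 on the array labelled Mef2d KO, against 18133 on the WT array, a difference of 0.21 ± 0.20, or 1.16-fold. The difference of Xbp1 is thus about as large as the scanner's error and that of Ern1 well inside it. The Xbp1 probe is named by the accession of 1 transcript, and the sources used here do not say whether it reads the spliced and the unspliced form alike, so these values describe total Xbp1 signal and not splicing.

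The 5 chaperones and foldases of the ER lumen all had positive differences, from 0.030 to 0.32 with a median of 0.12. Hspa5 (chromosome 2) encodes BiP, the HSP70 chaperone that also holds the sensors inactive. Its signal was 37084 on the array labelled Mef2d KO, against 28801 on the WT array, and it differed by 0.28 ± 0.20, or 1.21-fold, with 8.54% of all genes at or above that difference. Hsp90b1 (chromosome 10), the HSP90 chaperone GRP94, had a signal of 30780 on the array labelled Mef2d KO, against 28371 on the WT array, and differed by 0.030 ± 0.20.

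Calr (chromosome 8) encodes calreticulin, a calcium-binding lectin chaperone for glycoproteins. It had a signal of 15021 on the array labelled Mef2d KO, against 13025 on the WT array, and differed by 0.12 ± 0.20. Pdia4 (chromosome 6), the disulfide isomerase ERp72, had a signal of 1216 on the array labelled Mef2d KO, against 918 on the WT array. Its difference of 0.319 ± 0.20 was the highest of the 10 and lay just under the log2 limit of 0.322, with 6.70% of all genes at or above it. With normexp background correction it was 0.23. Sdf2l1 (chromosome 16), a partner of the BiP co-chaperones, had a signal of 374 on the array labelled Mef2d KO, against 325 on the WT array, and differed by 0.12 ± 0.20.

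**Figure D2:**
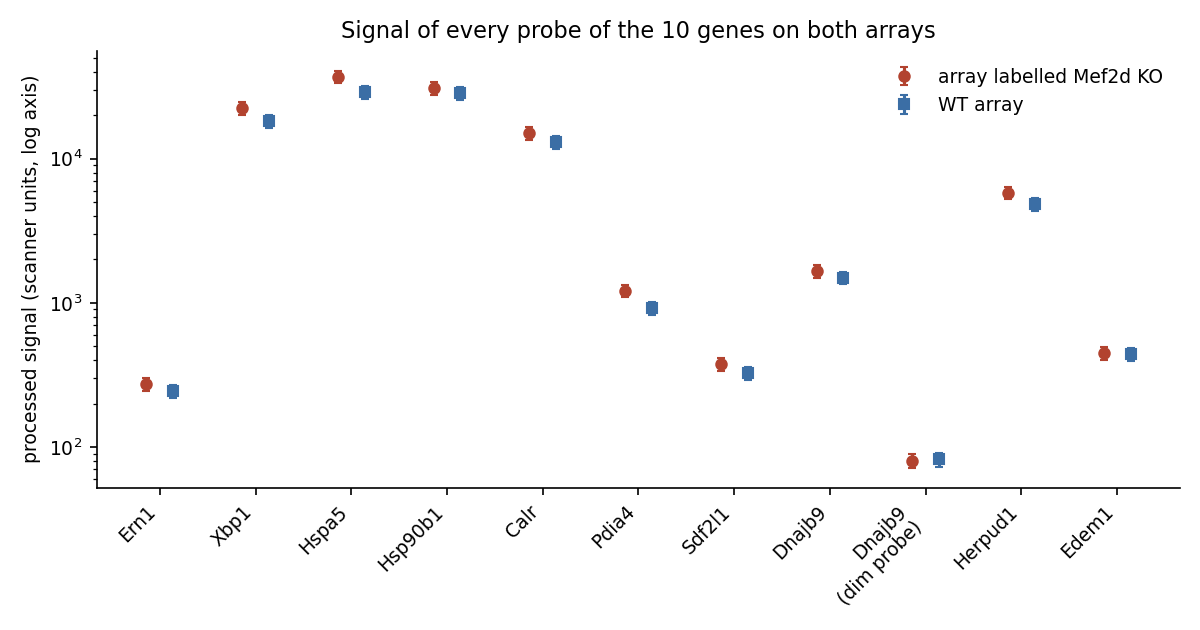
Processed signal (scanner units, log axis) of all 11 probes of the 10 genes, on the array labelled Mef2d KO (circles) and the WT array (squares), with bars for the scanner's error on each signal. The signals of the 2 arrays lie close together at every probe, and levels of different probes are not comparable.

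The 3 genes of substrate handover and degradation ranged from -0.071 to 0.18 with a median of 0.062. Herpud1 (chromosome 8), a membrane protein that organises the ubiquitin ligase complex of ER-associated degradation, had a signal of 5796 on the array labelled Mef2d KO, against 4822 on the WT array, and differed by 0.18 ± 0.20. Edem1 (chromosome 6), a mannosidase-like protein that marks misfolded glycoproteins for removal, had a signal of 447 on the array labelled Mef2d KO, against 442 on the WT array, and differed by -0.071 ± 0.20. The unscaled signals of Edem1 were almost equal, and its sign comes from the scaling.

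Dnajb9 encodes ERdj4, a BiP co-chaperone that is a well-known target of XBP1, and it was the only one of the 10 genes with more than 1 probe. Its brighter probe had a signal of 1655 on the array labelled Mef2d KO, against 1492 on the WT array, and differed by 0.062 ± 0.20. Its dim probe had a signal of 80.6 on the array labelled Mef2d KO, against 82.1 on the WT array, and differed by -0.12 ± 0.22. The probes thus disagree in sign within their errors, and Dnajb9 has no settled direction. Its brighter probe turned to -0.023 with normexp background correction, and the mean over both probes was -0.026.

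**Figure D3:**
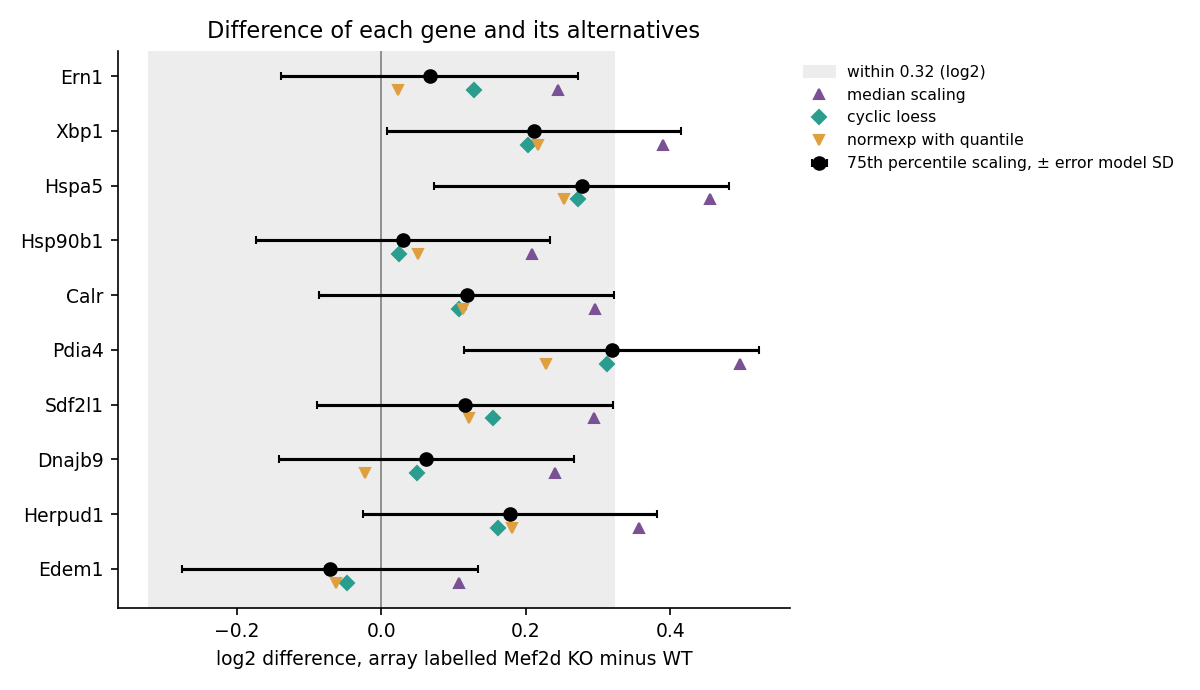
Log2 difference (array labelled Mef2d KO minus WT) of the 10 genes, each by its brightest probe, with the scanner's error as bars, and the values under median scaling, cyclic loess and normexp background with quantile normalization below it. All 10 points lie inside the shaded band of 0.32 on the log2 scale, and median scaling moves every gene upward together.

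Set against their error, 3 of the 10 differences (Pdia4, Hspa5 and Xbp1) were larger than 1 error-model SD, against 32.4% of all genes in either direction, and 0 were larger than 2, against 11.9%. The error model sets about the same SD of 0.20 for each of these genes. Spots of 1 probe printed 3 or more times agreed more closely: over 258 such probes with a mean level above -3, the median SD of the difference was 0.062. Against 2 such SDs, 4 of the 10 were larger, Herpud1 with the 3 above, against 52.8% of all genes in either direction and 47% of those with a mean level above -3. Counted in either direction, the 10 genes passed these limits no more often than genes at large. The 4 that passed were all positive, however. The share of all genes past this limit upward alone was not counted. Calr was the highest of the 10 under the limit, and 24.3% of all genes lay at or above its difference of 0.12. At or above the difference of Herpud1 lay 16.1%, and 12.9% at or above that of Xbp1. Neither measure holds the variation between animals or dissections.

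Differences of all genes depended on level, and the 10 genes sit where this trend is small. Genes with a mean level at or below -3, relative to the 75th percentile, had a median difference of -0.21, and none of the 10 lies there by its brightest probe. From -3 to 0, where Ern1, Sdf2l1 and Edem1 lie, the median was -0.030. From 0 to 3 it was 0.031 and above 3 it was 0.027, with 59.0% and 58.3% of genes above 0. Over the 13114 genes with a mean level above -3, 53.8% had a positive difference, 6.32% passed the limit of 0.32 upward and 6.29% downward.

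**Figure D4:**
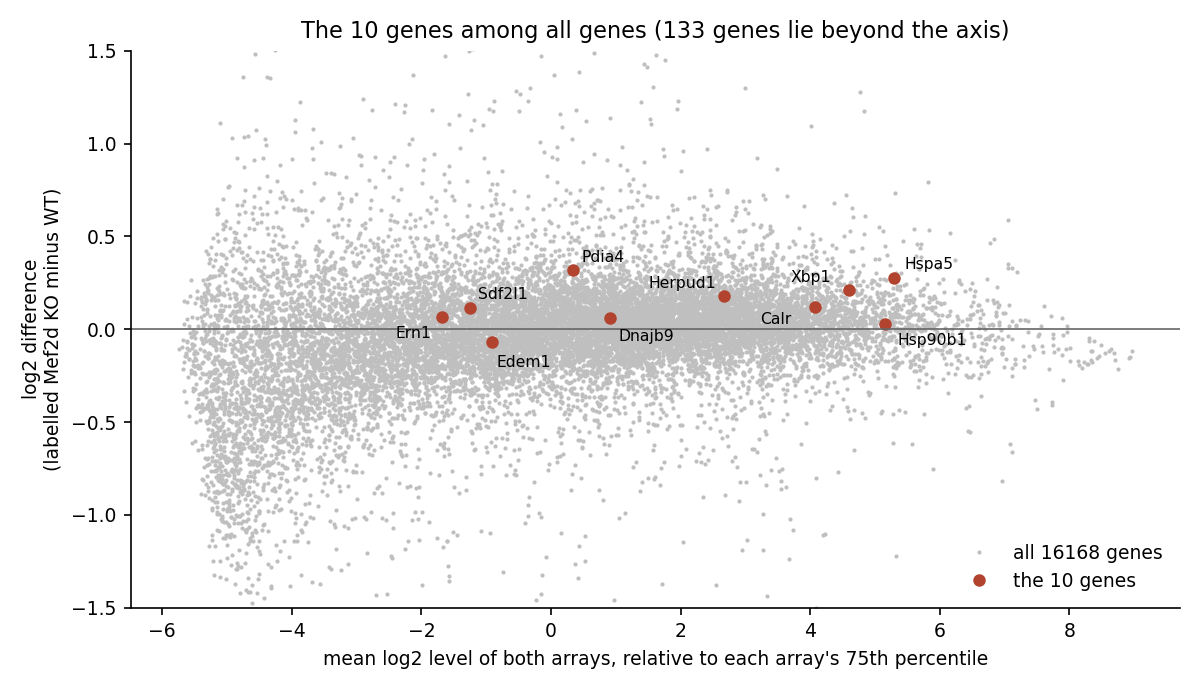
Log2 difference (array labelled Mef2d KO minus WT) against the mean log2 level of both arrays for 16168 genes (grey) and the 10 genes (filled circles, named), with 133 genes beyond the axis. The 10 genes lie inside the main cloud, and the cloud bends below 0 at low levels, where none of them lies.

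Other genes of the pathway stayed within the same range with few exceptions. Of 23 other ER chaperones and foldases, 0 passed the limit of 0.32 upward and 2 downward, with 15 above 0 and a median of 0.043. Those 2 were Txndc5, a disulfide isomerase (signal 487 on the array labelled Mef2d KO, against 718 on the WT array, difference -0.65 ± 0.20), and Fkbp11, a prolyl isomerase (signal 50.4 on the array labelled Mef2d KO, against 62.0 on the WT array, difference -0.39 ± 0.23). Fkbp11 was dim and differed by -0.079 with cyclic loess. Of 17 other ER-associated degradation genes, 0 passed it in either direction, and the median was 0.025. The lowest was Ubxn4, which recruits the segregase VCP to the ER (-0.26), and the highest Ube2g2, a ubiquitin-conjugating enzyme (0.25).

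Creld2, a disulfide isomerase relative with an exact ERSE in its window, had its probe printed on 10 spots and is named after its values were seen. The unscaled spot signals were 12439, 12936 and 13547 (lowest, median and highest) on the array labelled Mef2d KO, against 9501, 10079 and 10517 on the WT array. The mean difference was 0.28 ± 0.071 (SD over spots), from 0.16 to 0.37. The spots share their RNA, so this spread is technical. Other genes of the ER lists with a probe on 8 to 10 spots were lower. These were Herpud2 (0.11 ± 0.057), Os9 (-0.026 ± 0.026) and Sec63 (-0.12 ± 0.086, by a probe that is not its brightest).

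Genes with an exact ERSE outside the 10 were split around 0. An exact element was held by 5 of the 19 other ER chaperones with a window. Their differences were 0.315 for Dnajc3, 0.28 for Creld2, 0.043 for Canx, 0.041 for Pdia6 and -0.058 for Ero1b. It was also held by 2 of the 13 degradation genes with a window, Syvn1 (0.027) and Derl3 (-0.0066). The other 4 genes of each list were not searched. Of the 37 genes with an exact ERSE anywhere among the windows, 34 are not among the 10, and 19 of those were well above background on both arrays. They had a median difference of -0.0066, with 9 above 0, 2 past the limit of 0.32 upward and 3 past it downward.

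Of 21 ER translocation and early secretory genes, 3 passed the limit of 0.32 upward, 0 passed it downward and 15 were above 0, with a median of 0.079. Spcs2, a subunit of the signal peptidase that trims proteins entering the ER, had a signal of 9035 on the array labelled Mef2d KO, against 5274 on the WT array, and differed by 0.69 ± 0.20. Sec62 (0.38), a translocation channel partner, and Ssr1 (0.34), a subunit of the translocon-associated complex, were the other two, and both were below the limit with normexp background correction (0.28 and 0.29). Among 11 other stress sensors and their processing factors, 1 passed the limit upward and 1 downward. The first was Mbtps1, the Golgi protease that cuts ATF6 (0.324 ± 0.20). Its difference was 0.315 with cyclic loess, under the limit, and 0.39 with normexp background correction, above it. The second was Tmbim6, an ER membrane protein that restrains cell death and IRE1 (-0.39 ± 0.20). Atf6 itself had a difference of -0.073 and Eif2ak3, which encodes PERK, 0.23. This list's median was 0.12 and turned to -0.051 when the probes of each gene were averaged.

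The genes of the PERK-ATF4 branch were spread more widely than the 10. Of 17 measured, 7 passed the limit of 0.32 upward and 3 downward, 1 was past 2-fold upward and 1 downward, and the median was 0.27. Shmt2, a mitochondrial serine enzyme, differed by 1.22 and Nupr1, a stress-induced chromatin protein, by -1.73. Atf4 had a difference of 0.59 and Ddit3, which encodes CHOP, 0.34. The 6 substrates that IRE1 is known to cut for decay had a median of -0.059, and 0 were past 0.32. They ranged from Scara3, a scavenger receptor (-0.22), to Bloc1s1, a subunit of a lysosome biogenesis complex (0.22).

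Chaperones outside the ER had medians near 0, as did the other ER chaperones (0.043) and other ER-associated degradation genes (0.025). Of 11 cytosolic chaperones 6 were above 0 and 0 past 0.32, with a median of 0.035. Hsp90aa1, the inducible cytosolic HSP90, differed by -0.26 and Dnajb1, an HSP40 co-chaperone, by 0.14. Of 7 mitochondrial chaperones and proteases 4 were above 0 and 0 past 0.32, with a median of 0.020. Hspa9, the mitochondrial HSP70, differed by 0.22 and Trap1, the mitochondrial HSP90, by 0.19. No list was tested against another, and a bulk array cannot tell more RNA per cell from more cells of a type.

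**Figure D5:**
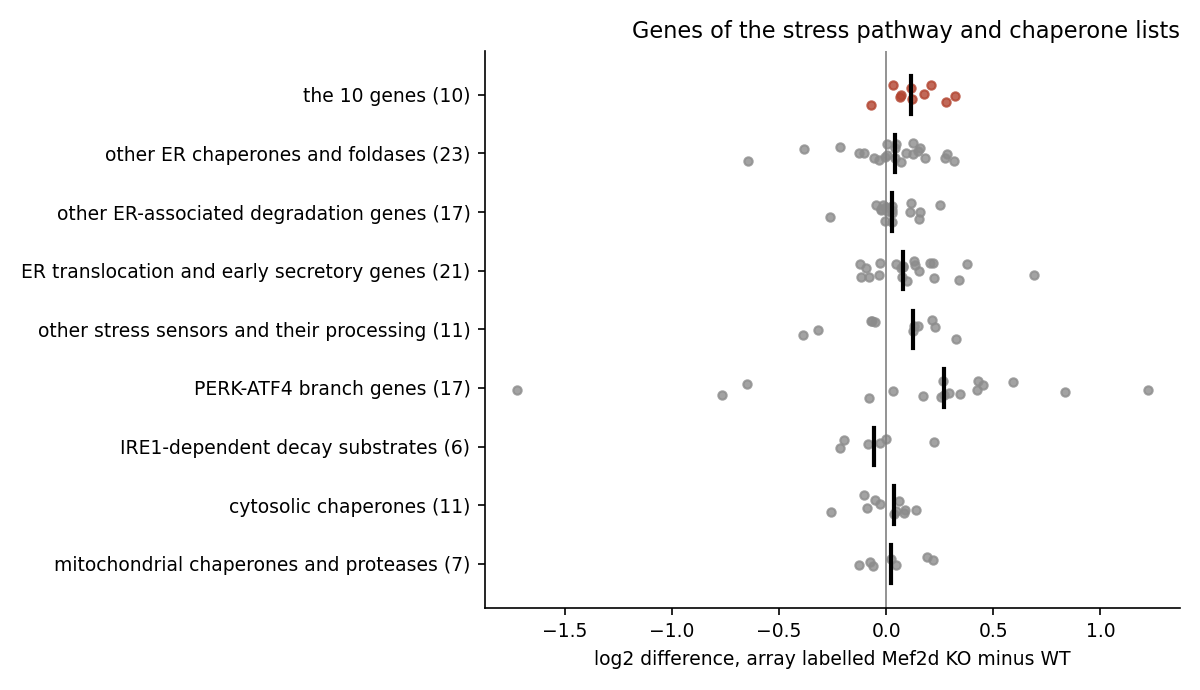
Log2 difference (array labelled Mef2d KO minus WT) of the genes of each list well above background on both arrays (points) with the list median (bar) and the number of genes in brackets. The 10 genes lie between -0.071 and 0.32, and the PERK-ATF4 genes between -1.73 and 1.22.

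Markers of other cell types in the dissection differed as well, and their part in these differences was not tested. Among 15 microglia markers 9 passed the limit of 0.32 upward and 0 downward, their summed unscaled signal was 21195 on the array labelled Mef2d KO, against 14633 on the WT array, and Csf1r differed by 0.26. Of 15 measured lens markers, 12 passed it downward, and the summed signal was 58961 on the array labelled Mef2d KO, against 168216 on the WT array, with Cryaa at -2.15 and Crygc at -0.34. Plasma cells are rich in ER chaperones and XBP1. Of 11 B cell and plasma cell markers 7 were well above background on both arrays (all but Ms4a1, Irf4, Pou2af1 and Tnfrsf17). Of these, 2 passed the limit of 0.32 upward and 4 downward, with a median of -0.50, Prdm1 at 0.78 and Jchain at -4.69. Their summed signal was 3429 on the array labelled Mef2d KO, against 3285 on the WT array. Most of it came from Prdm1, with 3050 on the array labelled Mef2d KO, against 1674 on the WT array. Which cells gave the Prdm1 signal was not tested. Jchain had a signal of 54.6 on the array labelled Mef2d KO, against 1328 on the WT array. The other gene past the limit upward was Mzb1 (0.77). Of 7 pigment epithelium markers 2 passed it upward, with a median of 0.17, Dct at 0.13 and Ttr at 0.10. Of the 9 rod markers 3 passed the limit of 0.32 downward (Sag -0.82, Gngt1 -0.62 and Gnat1 -0.43) and 2 upward (Pde6b 0.38 and Nr2e3 0.37), with a median of -0.041, Rom1 at -0.061 and Nrl at 0.020. Of the 8 Mueller glia markers 0 passed it and 6 were below 0, with a median of -0.14, Dkk3 at 0.071 and Glul at -0.17. Both medians were positive with scaling to the array median, and that of the rod markers also with normexp background correction. Of the 8 immediate early genes, which respond to handling of tissue among other stimuli, 1 passed 2-fold upward (Egr1 at 1.53) and 1 downward (Fos at -1.09). The list had 5 genes above 0, among them Jun at 0.26, and 3 below, with a median of 0.11.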

How the data were processed

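Cy3-labelled RNA of 1 array labelled Mef2d KO and 1 WT array was read by the authors with Agilent Feature Extraction 10.10.1.1, which gave background-subtracted, detrended intensity values, per the file headers. The deposited series table holds these intensities times 1 constant per array (1.76 and 1.88); its medians are 136.6 and 155.1, and no source used here gives the reason for the constants. Each array's processed signal was divided by its own 75th percentile (858 and 807) over 59305 probe spots and put on the log2 scale. Outlier spots (126 and 106) were left out and spots of a probe averaged. Of 55669 probes, 27225 were named through RefSeq accessions (GRCm38.p6); the array design names mm9. A gene was represented by its brightest probe. Well above background were 69.6% of spots on the array labelled Mef2d KO and 75.5% on the WT array, and 0 were saturated. Precision is limited by the number of arrays.

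The members and lists were chosen with earlier results of these data known. Named were all 10 members, the 2 largest differences of each pathway list, the 2 brightest genes of each marker list (1 of them is not reported here) and Mef2d. Further genes were named after their values were seen: Xist, Creld2, Herpud2, Os9, Sec63, Ssr1, Atf6, Eif2ak3, Atf4, Ddit3, Mzb1 and Fos. The 5 rod genes past the limit and the other genes holding an ERSE were also named then. The genes with a mean level above -3 and the set of all ERSE genes were likewise added after seeing the data. Promoter sequences are from RefSeq (GRCm38.p6), and all 10 members matched. The alternatives tried were the series table, the array median as scale, the 75th percentile taken over measured probes only, cyclic loess, quantile normalization alone and after normexp correction (offset 50, on median spot and background signals), the mean over a gene's probes, no filter on dim probes, a 1.5-fold limit and 1 mismatch in the ERSE. The scripts were tested on simulated data. Tools were Python 3.11.15 (pandas 2.3.3, numpy 2.4.6, matplotlib 3.10.9) and limma 3.58.1 in R 4.3.3.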

Additional observations from a re-analysis of the deposited data

How the results depend on the processing

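No paired analysis was possible because each group has 1 array, and no replicate could be left out. The counts of members 2-fold apart stayed at 0 under all 8 alternatives that change the values, and 13 of 80 member differences moved by more than the spread between replicate spots. Scaling by the array median put the median of all genes at 0.17 and moved every member with it: 4 members then passed 0.32 on the log2 scale upward, against 20.3% of all genes, and the member median was 0.30, or 0.12 above that of all genes. The list medians under it were 0.22 for other ER chaperones, 0.20 for other degradation genes, 0.26 for translocation genes, 0.30 for other sensors, 0.45 for PERK-ATF4 genes, 0.12 for IRE1 decay substrates, 0.21 for cytosolic and 0.20 for mitochondrial chaperones. Averaging the probes of each gene gave -0.051 for other sensors; the cause was not tested. Relative to the median of all genes under the same setting, the member median was higher by between 0.10 (normexp background) and 0.17 (no filter on dim probes), with 8 or 9 of the 10 members above it. With 1 mismatch allowed 5 members held an ERSE. A single array per group limits all of these values.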
